A study of Mus musculus with 2 samples.

Results

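Hepatic expression of the metallothioneins, the zinc transporters and their metal-responsive regulator was examined in mice without Adipoq (Adipoq-/-), the gene of the adipocyte hormone adiponectin, and in wild-type (WT) mice. The genes were 9 symbols listed by name, chosen from the deposited tables by an exact match of the gene symbol. A row was found for 8 of them among 13326 gene symbols (Mt1, Mt2, Mtf1, Slc30a1, Slc30a10, Slc39a1, Slc39a7 and Slc39a14), and Slc39a5 was not analysed here. None of the 8 was found in more than 1 row, and all 8 passed the minimum of 1 FPKM in either library. The animals of both genotypes were male C57BL/6J mice, 12 weeks old and fasted overnight. Liver RNA of 9 to 10 mice was combined before sequencing, so each genotype is 1 library and the variation between animals cannot be seen. Values are FPKM as the authors deposited them, which are fragments scaled to transcript length and library size, and the number of fragments per library is unknown. The absence of Adipoq transcripts was not checked, since Adipoq itself was not analysed here.

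Metallothioneins are small cysteine-rich proteins that bind zinc, copper and cadmium and hold a reserve of zinc inside the cell. The transcription factor MTF1, encoded by Mtf1, is activated by zinc and switches on Mt1, Mt2 and Slc30a1 through short metal response elements. Slc30a proteins (ZnT) move zinc out of the cytosol, either out of the cell or into organelles, and Slc39a proteins (ZIP) move it in. In liver, metallothionein is also induced by glucocorticoids and by interleukin-6.

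The metal response element is the sequence feature known to tie Mt1, Mt2 and Slc30a1 to MTF1. The stretches upstream of these genes and of the exporter Slc30a10 are therefore shown. They are the 250 bases before the start of Mt2 (chr8:94172368-94172617, plus strand), Mt1 (chr8:94178839-94179088, plus strand), Slc30a1 (chr1:191906531-191906780, plus strand) and Slc30a10 (chr1:185454598-185454847, plus strand), taken from RefSeq on the build GRCm38.p6 and written 5′ to 3′. Capitals mark matches on either strand to the core of the element, searched as TGCACNC and TGCGCNC.
Mt2: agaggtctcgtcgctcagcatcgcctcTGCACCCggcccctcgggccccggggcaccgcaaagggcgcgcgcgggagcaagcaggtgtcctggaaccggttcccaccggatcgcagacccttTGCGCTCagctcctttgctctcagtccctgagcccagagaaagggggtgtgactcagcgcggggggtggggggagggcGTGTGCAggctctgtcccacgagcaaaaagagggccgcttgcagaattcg
Mt1: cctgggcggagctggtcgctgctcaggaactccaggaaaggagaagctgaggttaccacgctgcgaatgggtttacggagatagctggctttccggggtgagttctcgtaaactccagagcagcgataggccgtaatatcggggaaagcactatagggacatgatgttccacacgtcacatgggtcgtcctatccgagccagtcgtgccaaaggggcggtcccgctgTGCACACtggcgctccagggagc
Slc30a1: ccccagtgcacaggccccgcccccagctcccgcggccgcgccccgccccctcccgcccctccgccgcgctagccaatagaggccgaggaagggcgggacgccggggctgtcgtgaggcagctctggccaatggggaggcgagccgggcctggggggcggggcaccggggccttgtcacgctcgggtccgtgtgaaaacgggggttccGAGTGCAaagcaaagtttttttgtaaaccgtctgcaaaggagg
Slc30a10: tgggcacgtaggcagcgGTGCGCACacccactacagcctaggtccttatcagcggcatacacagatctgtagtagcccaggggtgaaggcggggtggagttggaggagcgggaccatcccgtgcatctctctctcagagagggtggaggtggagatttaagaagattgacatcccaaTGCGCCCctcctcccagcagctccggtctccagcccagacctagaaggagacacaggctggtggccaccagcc

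The core was found at 3 positions upstream of Mt2, at 1 upstream of Mt1, at 1 upstream of Slc30a1 and at 3 upstream of Slc30a10, of which 2 overlap on opposite strands. No match was found in the corresponding windows of Mtf1, Slc39a1 and Slc39a7. The windows follow the RefSeq starts, which for Mt1 and Mt2 may lie upstream of the start sites in common use, so known elements close to those sites may fall outside the windows and the counts for these genes may be incomplete. Over 32851 windows of 250 bases from all genes, 21.4% held at least 1 match and 1.26% at least 3. With the 50 bases after the start included, Mt2 had 4 matches, Mt1 had 3, Slc30a1 had 2 and Slc30a10 had 3, and 1.97% of all such longer windows held at least 3. A RefSeq sequence was available for 7 of the 8 genes. A match is a string of letters and does not show that MTF1 binds there, and no match says only that these letters are not in this window. A link between these matches and the expression ratios given next was not tested.

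Mt1, Mt2 and Mtf1 had higher FPKM in the Adipoq KO than in the WT library, and the 5 measured transporters had lower FPKM. The difference was 1.59-fold for Mt2, 1.44-fold for Mtf1 and 1.17-fold for Mt1, and among the transporters it ranged between a ratio of 0.585 for Slc30a10 and 0.903 for Slc39a1. A lower value was common in these tables, since 66.9% of the 11985 genes that reached 1 FPKM in either library were lower in the Adipoq KO library by any amount. Ratios were therefore expressed as log2((Adipoq KO FPKM + 1)/(WT FPKM + 1)) minus the median of this quantity over the 11985 genes, which was -0.15. This relative log2 ratio understates the difference of genes with few FPKM. With 1 library per genotype there is no spread between replicates and no test, and the words higher and lower describe this pair of libraries.

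**Figure D1:**
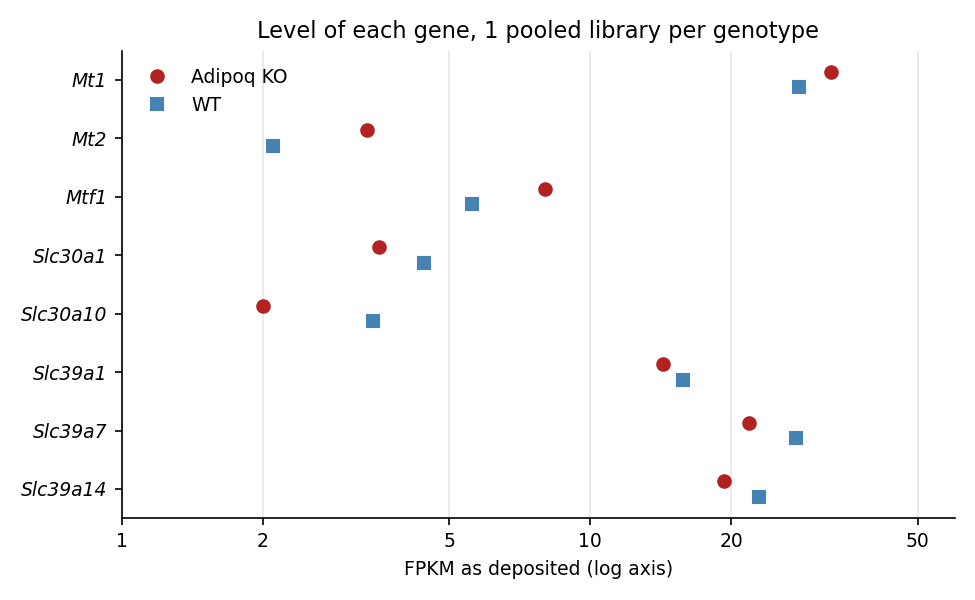
FPKM as deposited on a log axis for the 8 genes, with a red circle for the Adipoq KO library and a blue square for the WT library. The circle lies to the right of the square for Mt1, Mt2 and Mtf1 and to the left for the 5 transporters, with the widest gaps for Slc30a10 (2.01 FPKM in the Adipoq KO, 3.43 in WT) and Mt2 (3.35 FPKM in the Adipoq KO, 2.10 in WT).

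Mt1 is the metallothionein with the higher level here, and its transcript had 32.7 FPKM in the Adipoq KO and 27.9 FPKM in the WT library. Its relative log2 ratio was 0.37, and 16.4% of all genes had a higher one. Mt2, the second ubiquitous metallothionein, had 3.35 FPKM in the Adipoq KO and 2.10 FPKM in the WT library. Its relative log2 ratio was 0.64, with 5.09% of genes above it. Mt1 exceeded Mt2 by 9.78 times in the Adipoq KO and by 13.3 times in the WT library, so Mt2 made up 9.28% of the summed metallothionein FPKM in the Adipoq KO and 7.002% in the WT library. The sum of both was 36.1 FPKM in the Adipoq KO and 29.98 FPKM in the WT library, a relative log2 ratio of 0.41. Mt1 and Mt2 are neighbouring genes on chromosome 8 with similar coding sequences, and how the authors' counting divided reads between near copies is not given in the sources used here. Mt3 and Mt4, the metallothioneins of brain and stratified epithelia, were not analysed here.

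Both metallothionein transcripts are short, and short transcripts as a whole had higher ratios in this pair of libraries. Across 11571 genes with a known length the Spearman rho between length and log2 ratio was -0.44, given as a description since genes are not independent replicates. Mt1 (549 nucleotides) and Mt2 (511 nucleotides) fell into the same bin of 579 genes with transcripts of 392 to 555 nucleotides, and the median relative log2 ratio of that bin was 0.41. Set against the median of this bin in place of the median of all genes, the log2 ratio was -0.04 for Mt1 and 0.23 for Mt2. The higher value of Mt1 was thus no larger than that of the typical transcript of its length, whereas Mt2 stayed above it. The spread of ratios within this bin was not examined, so how unusual the value of Mt2 is there cannot be said. The length of Mt1 depends on the isoform, and with its longest annotated transcript (1085 nucleotides) the corrected ratio was 0.14. The part of transcript length in the metallothionein values was not tested further.

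**Figure D2:**
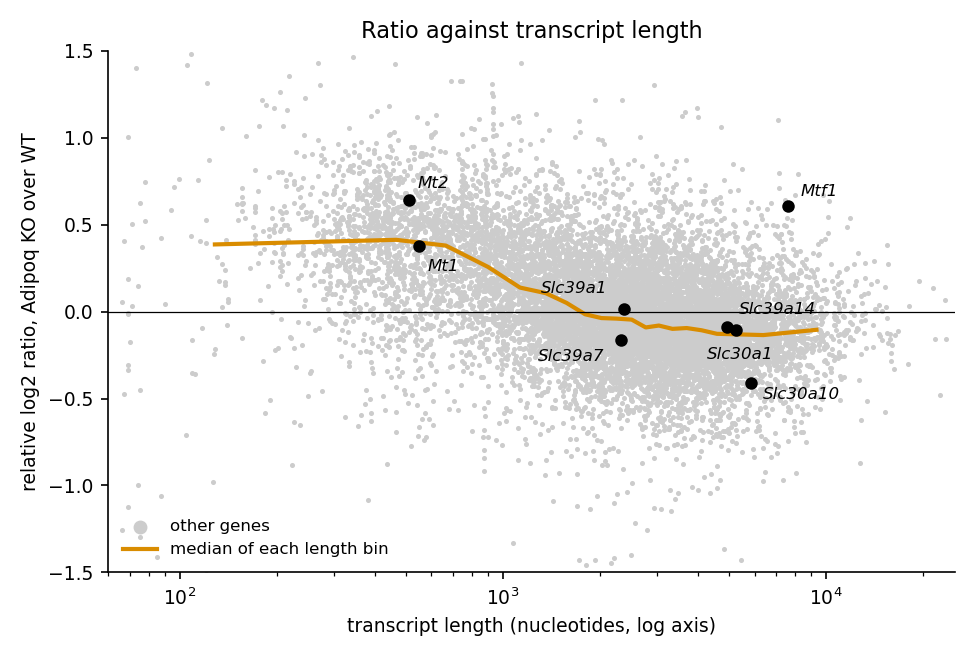
Relative log2 ratio of Adipoq KO over WT against transcript length on a log axis for 11571 genes, of which 31 lie outside the axes, with the 8 named genes in black and the median of each of 20 length bins as a line. Mt1 lies on the line and Mt2 above it, Mtf1 lies far above the line at 7631 nucleotides, and Slc30a10 lies below it.

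Mtf1 had 8.03 FPKM in the Adipoq KO and 5.59 FPKM in the WT library. Its relative log2 ratio was 0.61, and 6.00% of all genes had a higher one. Mtf1 has a long transcript of 7631 nucleotides, and the genes in its length bin had a median relative log2 ratio of -0.10. Relative to those genes its log2 ratio was 0.71, the highest of the 8 genes on that scale. Among 1199 genes with a mean between 4.60 and 6.90 FPKM, the middle 95% of relative log2 ratios lay between -0.61 and 0.72, a range that holds the value of Mtf1. For Mt2 the corresponding range, over 1199 genes with a mean of 2.06 to 3.09 FPKM, was -0.63 to 0.69, and it holds the value of Mt2 as well. Summed metallothionein FPKM was 4.49 times that of Mtf1 in the Adipoq KO and 5.36 times in the WT library.

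The exporter Slc30a1 (ZnT1), which carries zinc out across the plasma membrane and is a classical MTF1 target, had 3.54 FPKM in the Adipoq KO and 4.42 FPKM in the WT library. Its relative log2 ratio was -0.11, and it was 0.02 against genes of its length. Slc30a1 thus did not follow the sign of Mtf1 and Mt2 on the deposited values and lay close to the typical gene of its length. Slc30a10, which exports manganese from hepatocytes into bile, had 2.01 FPKM in the Adipoq KO and 3.43 FPKM in the WT library. At -0.41 it had the lowest relative log2 ratio of the 8 genes, and 7.12% of all genes were lower. After length correction it was still the lowest of them, at -0.27. Of the summed Slc30a FPKM, Slc30a10 made up 6.62% in the Adipoq KO and 9.13% in the WT library, whereas Slc30a1 made up 11.7% in the Adipoq KO and 11.8% in the WT library.

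The importers were the more abundant transporters and differed little in relative terms. Slc39a7 (ZIP7), which releases zinc from the endoplasmic reticulum and Golgi, had 21.8 FPKM in the Adipoq KO and 27.5 FPKM in the WT library, a relative log2 ratio of -0.17 and of -0.12 after length correction. Slc39a14 (ZIP14), which takes up zinc, manganese and iron and is induced in liver by interleukin-6, had 19.3 FPKM in the Adipoq KO and 22.9 FPKM in the WT library. Its relative log2 ratio was -0.09, and 0.04 after length correction. Slc39a1 (ZIP1), a broadly expressed plasma membrane importer, had 14.3 FPKM in the Adipoq KO and 15.8 FPKM in the WT library, with a relative log2 ratio of 0.01. Together these importers made up 62.0% of the FPKM of all measured Slc39a genes in the Adipoq KO and 61.7% in the WT library. Slc39a14 and Slc30a10 are the liver's manganese importer and exporter, and the ratio of their FPKM was 9.60 in the Adipoq KO and 6.67 in the WT library.

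By level, Mt1 came first in both libraries, followed by Slc39a7, Slc39a14, Slc39a1, Mtf1 and Slc30a1. The last 2 places were held by Mt2 and Slc30a10 in the Adipoq KO library, whereas the order was Slc30a10 and then Mt2 in the WT library. In the WT library Mt1 exceeded Slc39a7 by 1.02 times, and in the Adipoq KO library by 1.498 times. Which neighbours in this order differ beyond replicate error cannot be said with 1 library per genotype.

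Counted at a size of 1.5-fold on the relative scale, 2 of the 8 genes (Mt2 and Mtf1) were higher in the Adipoq KO library, where 6.73% of all 11985 genes were. None of the 8 was at least 1.5-fold lower, where 2.61% of all genes were. Both counted genes lay just past the limit of 0.58 on the log2 scale. The count was 0 of 8 with FPKM as deposited, at equal summed FPKM and at equal upper quartiles, all still with 1 FPKM added. In these settings 387, 182 and 530 of all genes were at least 1.5-fold higher, against 806 here. Without the added 1 FPKM, Mt2 was 1.59-fold higher and Slc30a10 1.71-fold lower as deposited. The count was also 0 with a minimum of 5 FPKM, which leaves out Mt2. The median relative log2 ratio of the 8 genes was -0.04, with 4 above and 4 below the median of all genes. After length correction only Mtf1 of the 8 was at least 1.5-fold higher, beside 2.83% of 11571 genes, and 0 of the 8 were at least 1.5-fold lower, beside 2.72%.

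The rest of both transporter families lay between -0.42 and 0.17 on the relative log2 scale. Among the 24 Slc30a and Slc39a genes of the mouse that were looked up, 19 had a row and 16 passed the minimum. Of these 16, 15 were lower in the Adipoq KO library as deposited, where 66.9% of all 11985 genes were. Of the same 16, 12 lay below the median of all genes and 6 below that of genes of similar length. On the relative log2 scale none was 1.5-fold apart in either direction, where 9.34% of all genes were. Without the added 1 FPKM, Slc39a2 was 2.17-fold and Slc30a10 1.71-fold lower as deposited, both at low FPKM. The median relative log2 ratio of the 16 was -0.09 (0.03 after length correction). Summed FPKM was 30.3 in the Adipoq KO and 37.6 in the WT library for Slc30a genes, and 89.4 in the Adipoq KO and 107 in the WT library for Slc39a genes. The ratio of the Slc39a to the Slc30a sum was 2.95 in the Adipoq KO and 2.85 in the WT library.

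Among the remaining Slc30a genes, Slc30a9 was the most abundant, with 10.5 FPKM in the Adipoq KO and 12.0 FPKM in the WT library (relative log2 ratio -0.03). The Golgi and vesicle transporters Slc30a5 (6.23 FPKM in the Adipoq KO, 7.27 in WT), Slc30a6 (5.59 in the Adipoq KO, 7.34 in WT) and Slc30a7 (1.73 in the Adipoq KO, 2.22 in WT) had relative log2 ratios between -0.19 and -0.04. Of the other Slc39a genes, Slc39a2 had the lowest ratio, at 0.713 FPKM in the Adipoq KO and 1.55 FPKM in the WT library (-0.42). Slc39a4, known for zinc uptake in the intestine, had 8.41 FPKM in the Adipoq KO and 11.3 FPKM in the WT library (-0.23), and Slc39a9 had 5.96 FPKM in the Adipoq KO and 7.79 FPKM in the WT library (-0.19). Slc39a13 had 2.67 FPKM in the Adipoq KO and 2.63 FPKM in the WT library, the highest ratio of the families (0.17). Slc39a3 (4.80 FPKM in the Adipoq KO, 5.06 in WT), Slc39a11 (8.03 in the Adipoq KO, 8.31 in WT) and Slc39a8 (2.73 in the Adipoq KO, 3.24 in WT) had relative log2 ratios of 0.09, 0.11 and -0.03.

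**Figure D3:**
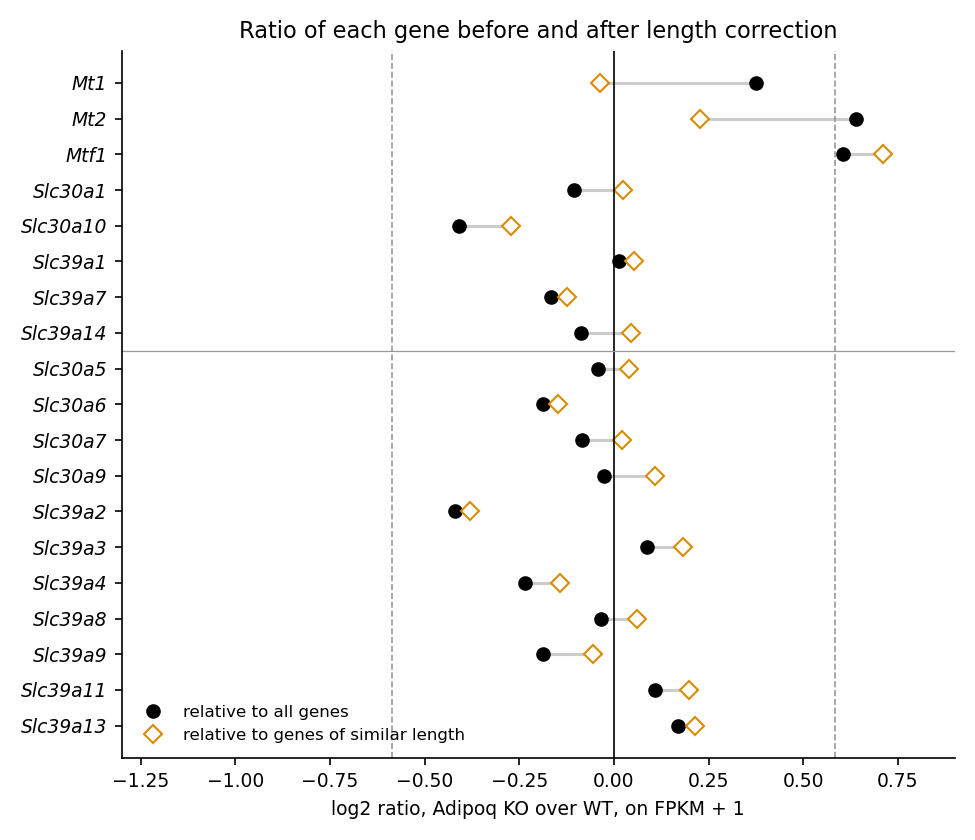
Log2 ratio of Adipoq KO over WT on FPKM + 1 for the 8 genes (above the grey line) and 11 other zinc transporters (below it), relative to all genes (black circles) and to genes of similar transcript length (open diamonds), with dashed lines at 1.5-fold. The circles of Mt2 and Mtf1 lie past the right dashed line, the diamond of Mtf1 alone stays there, and the transporters lie between the dashed lines.

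Other genes tied to zinc were read from lists of named genes, chosen with earlier results of these data known. Some genes recur, such as Sod1 in the copper and zinc enzyme lists and Slc39a8 in its family and the manganese list. Of 7 further genes linked to MTF1, 6 passed the minimum, 4 of them lay above the median of all genes, and their median relative log2 ratio was 0.36 (0.04 after length correction). The farthest from 0 were Gclc, the catalytic subunit of glutathione synthesis, with 22.1 FPKM in the Adipoq KO and 45.2 FPKM in the WT library (-0.85), and the selenoprotein gene Sepw1, with 171 FPKM in the Adipoq KO and 133 FPKM in the WT library (0.52). Gclc was the 1 gene of this list at least 1.5-fold lower, beside 2.61% of all genes, and 0 were as much higher, beside 6.73%. The members linked to MTF1 thus lay on both sides.

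Zinc-dependent enzymes of liver lay below the median of all genes in 12 of 14 cases, and in 14 of 14 after length correction, with a median relative log2 ratio of -0.16 (-0.21 after correction). None reached 1.5-fold on the relative scale in either direction, beside 9.34% of all genes. The mitochondrial carbonic anhydrase Car5a had 68.8 FPKM in the Adipoq KO and 103 FPKM in the WT library (-0.43), and the betaine methyltransferase Bhmt had 426 FPKM in the Adipoq KO and 633 FPKM in the WT library (-0.42). Copper handling genes, 11 of 12 with enough expression, had a median of 0.10 (-0.06 after length correction, -0.05 with FPKM as deposited, -0.21 at equal summed FPKM and -0.01 with no minimum) and none 1.5-fold apart, beside the same 9.34%. The cytochrome oxidase copper chaperone Cox17 had 97.3 FPKM in the Adipoq KO and 85.5 FPKM in the WT library (0.34), and Sco2, which acts in the same assembly, had 34.4 FPKM in the Adipoq KO and 49.8 FPKM in the WT library (-0.37). All 5 genes of manganese transport and use lay below the median of all genes, with a median of -0.07 that was 0.06 after length correction. The iron and manganese exporter Slc40a1 had 21.8 FPKM in the Adipoq KO and 29.8 FPKM in the WT library, and the Golgi pump Atp2c1 had 5.04 FPKM in the Adipoq KO and 7.15 FPKM in the WT library (-0.28 for each gene).

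Genes of glucocorticoid and interleukin-6 signalling, routes by which metallothionein is induced in liver, had a median relative log2 ratio of 0.23 (0.27 after length correction). The median was 0.08 with FPKM as deposited and turned to -0.01 with a minimum of 5 FPKM and to -0.03 at equal summed FPKM. Of the 15 genes, 9 lay above the median of all genes and 13 above that of genes of similar length. On the relative scale 2 were at least 1.5-fold higher (6.73% of all genes were) while 0 were as much lower (2.61% of all genes). The higher ones were the neutrophil gelatinase-associated lipocalin Lcn2, with 6.99 FPKM in the Adipoq KO and 3.66 FPKM in the WT library (0.93), and the glucocorticoid-induced leucine zipper Tsc22d3, with 27.6 FPKM in the Adipoq KO and 18.0 FPKM in the WT library (0.74). Whether these genes and the metallothioneins move together could not be examined with a single ratio per gene.

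The tissue label was checked against markers of liver cells. All 6 hepatocyte markers were found at 377 FPKM or more in the Adipoq KO library and at 438 FPKM or more in the WT library. All 7 Kupffer cell markers had a row, and 6 of them lay above the median of all genes (median relative log2 ratio 0.37, and 0.29 with 7 of 7 above after length correction). Their sum was 115 FPKM in the Adipoq KO and 113 FPKM in the WT library, most of it from Clec4f and Cd5l. As deposited, 4 of the 7 were higher in the Adipoq KO library and 3 were lower (Clec4f, Cd5l and Csf1r). The highest relative log2 ratio of the 7 was that of the scavenger receptor gene Marco, with 3.72 FPKM in the Adipoq KO and 1.26 FPKM in the WT library (1.21). Metallothioneins are made in many cell types, and in bulk tissue fewer cells of a type and less RNA per cell cannot be told apart. Of 8 pancreatic acinar markers 3 had a row, summing to 59.7 FPKM in the Adipoq KO and 30.2 FPKM in the WT library, nearly all of it Cela1. Of the others, Cela2a was higher in the Adipoq KO (1.96 FPKM, 0.517 in WT) and Amy2a5 was lower (0.822 FPKM, 1.25 in WT). The 6 endothelial markers summed to 64.1 FPKM in the Adipoq KO and 57.9 FPKM in the WT library, and the 5 of 6 stellate cell markers with a row to 75.6 FPKM in the Adipoq KO and 74.1 FPKM in the WT library. The sum was 23.6 FPKM in the Adipoq KO and 16.2 FPKM in the WT library for 3 of 5 cholangiocyte markers. Most of it in both libraries was Spp1, which was higher in the Adipoq KO (relative log2 ratio 0.76). Krt19 differed little (1.09 FPKM in the Adipoq KO, 1.02 in WT), and Sox9 was lower in the Adipoq KO (1.52 FPKM, 1.72 in WT). For 2 of 7 neutrophil markers the sum was 19.4 FPKM in the Adipoq KO and 22.5 FPKM in the WT library. Erythroid markers (3 of 5) summed to 8617 FPKM in the Adipoq KO and 7428 FPKM in the WT library, and adipocyte markers (2 of 5) to 12.96 FPKM in the Adipoq KO and 22.9 FPKM in the WT library. The adipocyte pair went opposite ways, with Cfd at 2.01 FPKM in the Adipoq KO and 13.3 FPKM in the WT library (-2.09) and Fabp4 at 10.95 FPKM in the Adipoq KO and 9.61 FPKM in the WT library (0.32). Of 6 lymphocyte markers 1 had a row, at 0.712 FPKM in the Adipoq KO and 0.982 FPKM in the WT library. The part of other cells in the values of the 8 genes was not tested.

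**Figure D4:**
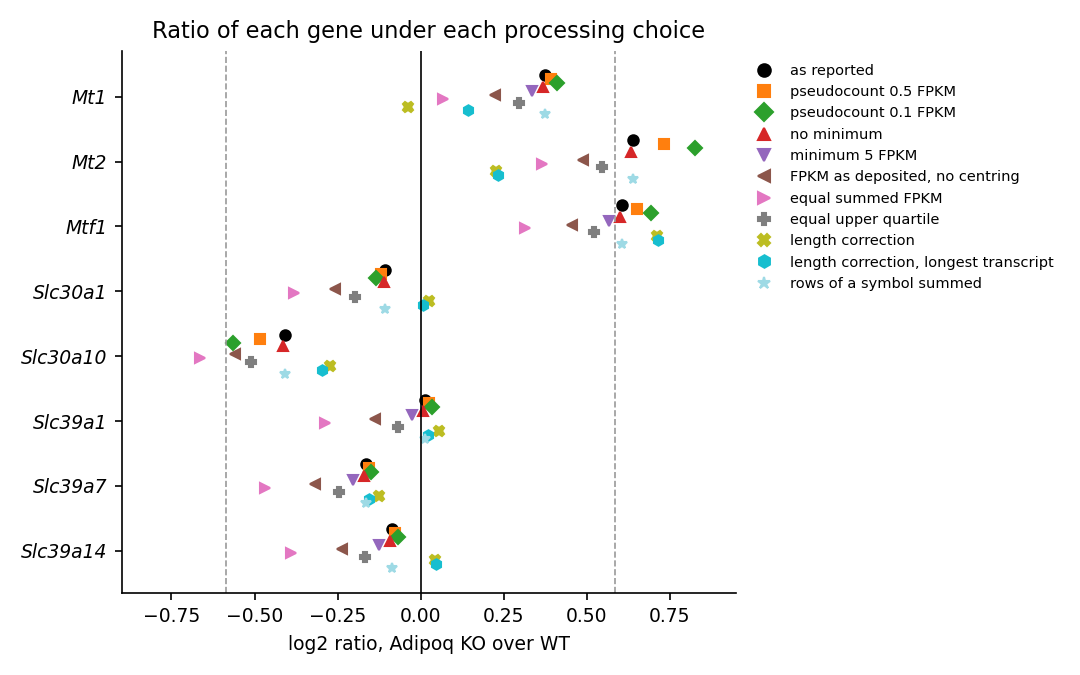
Log2 ratio of Adipoq KO over WT for the 8 genes as reported and under 10 other processing choices, with dashed lines at 1.5-fold. Mt2, Slc30a1 and Slc30a10 have no value with a minimum of 5 FPKM. Mt2 and Mtf1 are above 0, and Slc30a10 and Slc39a7 below 0, under every choice that gave them a value, and Mt1 spans -0.04 to 0.41.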

How the data were processed

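Liver RNA of 1 pooled library per genotype was sequenced. The values deposited by the authors are FPKM. The tools TopHat and Cuffdiff and the builds mm9 and NCBIM37 are named, per the submitters' processing notes, with no version or annotation given in the sources used here. Each table has 13352 rows, and of 26 repeated symbols the row of higher mean FPKM was used. The libraries summed to 891964 FPKM in the Adipoq KO and 798170 FPKM in WT.

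From these, log2 ratios with a pseudocount of 1 FPKM were computed for genes reaching 1 FPKM in either library and centred on their median (Python 3.11.15, pandas 2.3.3). The code was tested on simulated data. Transcript lengths (GENCODE M21, the longest transcript with a curated RefSeq record) were available for 96.5% of these genes, and the length correction centred ratios within 20 bins of length. No test across samples was possible.

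All 8 genes and all zinc transporters past the minimum are named, and of each further list the 2 farthest from 0 with at least 5 FPKM. Alternatives changed the pseudocount, minimum, scaling, length correction and duplicate rows. The alternative with FPKM as deposited left out the centring and kept the pseudocount of 1 FPKM. The genes, lists and alternatives were chosen with earlier results of these data known.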

Additional observations from a re-analysis of the deposited data

How the results depend on the processing

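Mt2 and Mtf1 kept a log2 ratio above 0 under each alternative that gave them a value (Mt2 0.23 to 0.83, Mtf1 0.31 to 0.71), and Slc30a10 (-0.66 to -0.27) and Slc39a7 (-0.47 to -0.12) kept one below 0. The signs of Slc30a1 (-0.38 to 0.02) and Slc39a14 (-0.39 to 0.05) turned with either length correction. That of Mt1 (-0.04 to 0.41) turned with the length correction but not with the one by the longest transcript (0.14). That of Slc39a1 (-0.29 to 0.05) turned with the scaling and with a minimum of 5 FPKM (-0.02). The ratio of the summed metallothioneins was 0.41 as reported, 0.10 at equal summed FPKM and -0.003 after length correction (0.09 with the longest transcript). With a minimum of 5 FPKM, which leaves out Mt2, Slc30a1 and Slc30a10, Mtf1 was at 0.57, so 0 of the 8 genes were at least 1.5-fold higher. With 1 FPKM added to each value, the count was also 0 with FPKM as deposited, at equal summed FPKM and at equal upper quartiles. It was 1 with either length correction. Slc30a10 was the 1 gene of the 8 at least 1.5-fold lower at equal summed FPKM, where 1495 of all genes were.

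Over all genes, 806 were at least 1.5-fold higher and 313 lower as reported. The counts that moved by over 1.5 times were 473 and 707 lower with pseudocounts of 0.5 and 0.1, 476 higher with a minimum of 5 FPKM, 387 higher and 739 lower with FPKM as deposited, 182 higher and 1495 lower at equal summed FPKM, 530 higher and 525 lower at equal upper quartiles, and 327 higher after length correction. With the longest transcript of each gene in the length correction, an alternative chosen after seeing the data, 365 were higher. The number of higher calls thus changed with the scaling, the minimum and the length correction. Of the other Slc39a genes, 1 was at least 1.5-fold lower with either smaller pseudocount and at equal summed FPKM. In the glucocorticoid and interleukin-6 list, 1 gene was lower with FPKM as deposited and at equal summed FPKM, where 1 was higher. Equal sums also gave 1 lower copper, 4 lower zinc enzyme and 1 lower manganese gene. No paired analysis was possible because each genotype is 1 library. The depth is unknown, so counting error could not be given.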
